A study of Homo sapiens with 6 samples.

Results

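The carboxy-terminal domain (CTD) of RNA polymerase II (RNAPII) is read by proteins that bind its phosphorylated repeats and is reset by phosphatases that remove the phosphates. The expression of 10 such genes was followed in OVCAR3 cells after inhibition of CDK12 and CDK13. The binders were SCAF1, SCAF4, SCAF8, RPRD1A, RPRD1B and RPRD2, and the phosphatases were SSU72, CTDP1, RPAP2 and CTDSP1. They were chosen for what their proteins do, with earlier results of these data known, and were found by gene symbol. All 10 were among the 47577 loci measured, of which 26793 carried a symbol.

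OVCAR3 cells are an established line of human high-grade serous ovarian cancer (HGSOC), and THZ531 inhibits CDK12 and CDK13 by binding them covalently. PolyA RNA was sequenced from 3 samples given DMSO, the solvent, for 6 h and from 3 samples given 200 nM THZ531 for 6 h. All 6 samples came from this single line, grown in RPMI 1640 with serum, with no genetic change made for the experiment. The titles and the treatment field of the samples name THZ531 whereas their treatment protocol names THZ1, and the samples are described here as THZ531. The labels do not say that the replicates were separate cultures, so the p-values measure only the spread between these samples.

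The CTD is a long tail of repeated heptapeptides on the largest RNAPII subunit. CDK7 phosphorylates it mainly on Ser5 and Ser7 near the promoter, and CDK9, CDK12 and CDK13 add phosphates on Ser2 as the polymerase moves along the gene. Proteins with a CTD-interacting domain, among them SCAF4, SCAF8 and the RPRD proteins, dock on these marks and carry splicing, elongation and 3′ end factors to the polymerase. Phosphatases then erase the marks, so that the polymerase can terminate and start a new round.

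Between 53054048 and 70986130 reads per library fell on genes, and each of the 10 genes had at least 547 reads in every library. The 8 markers of serous ovarian and epithelial cells were all present, each at 514 or more normalized reads in every library. Their summed level was 439645 to 450956 in DMSO and 559708 to 572253 in THZ531. Most of it came from the keratins KRT7, KRT8 and KRT18 (DMSO means 130310, 153783 and 114489). PAX8, a lineage factor among the markers, fell from 11272 ± 545 to 1241 ± 121 (log2 fold change -3.18). MUC16 (-0.46) and WT1 (-0.17, groups overlapping) were also negative but not called. EPCAM (0.30), CLDN3 (0.31), KRT7 (0.08), KRT8 (0.58) and KRT18 (0.43) were positive and not called. Of 10 markers of other cell types 2 (CD3E and ALB) were at 0 throughout and 5, these included, never reached 10. The summed level of this second list was 1250 to 1355 in DMSO and 2384 to 2668 in THZ531, mostly from COL1A1 (942 to 2338 normalized reads). Of the 5 of these markers that were tested, COL1A1 (1.14) and VWF (0.73) were called higher and 3 were not called. The part of this list in the results below was not tested. In these bulk samples fewer cells of a type and less RNA per cell cannot be told apart.

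With the authors' scaling, 3 of the 10 genes were up-regulated by THZ531 and 2 were down-regulated. Of the 6 binders, RPRD2, SCAF8 and RPRD1B were up-regulated and none was down-regulated, with a median log2 fold change of 0.47. Of the 4 phosphatases, SSU72 and CTDSP1 were down-regulated and none was up-regulated, with a median of -0.54. A gene was called regulated when its fold change was at least 1.5 with an unadjusted p of at most 0.05 in limma, fitted over the 17568 loci that reached 10 normalized reads in at least 3 libraries. All 10 genes passed this minimum, and 5 of the 10 were called, compared with 37.0% of all tested loci with a symbol (13.3% higher and 23.7% lower) and 39.5% of all tested loci (15.7% higher and 23.9% lower). Among so few genes this is close to the background and is no result about the group. The binders and the phosphatases are fewer still, so their split in direction is no result about either class. At a Benjamini-Hochberg adjusted p of at most 0.05 in limma and with no minimum fold, 9 of the 10 genes passed, 5 higher and 4 lower, compared with 70.2% of tested loci with a symbol (34.8% higher and 35.3% lower). The 3 DMSO and 3 THZ531 values did not overlap in 9 of the 10 genes, 5 higher and 4 lower, against a background of 72.9% (36.1% higher and 36.8% lower).

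These directions are relative to the authors' scaling of the libraries, under which the median log2 fold change of all tested loci was -0.01. When every library was brought to the same total this median became -0.25, and when each was scaled to RPL34, the ribosomal protein gene that the study used as its qPCR reference, it became -0.50. RPRD2 stayed up-regulated and SSU72 and CTDSP1 stayed down-regulated in all of these, whereas SCAF8 lost its call with RPL34 (0.37) and RPRD1B with both the same total (0.54) and RPL34 (0.28). The binder SCAF1 and the phosphatase RPAP2 gained a call as lower under both scalings, so that 2 genes were higher and 4 lower with the same total, and 1 higher and 4 lower with RPL34. The order of the 10 genes among themselves does not depend on the scaling.

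**Figure D1:**
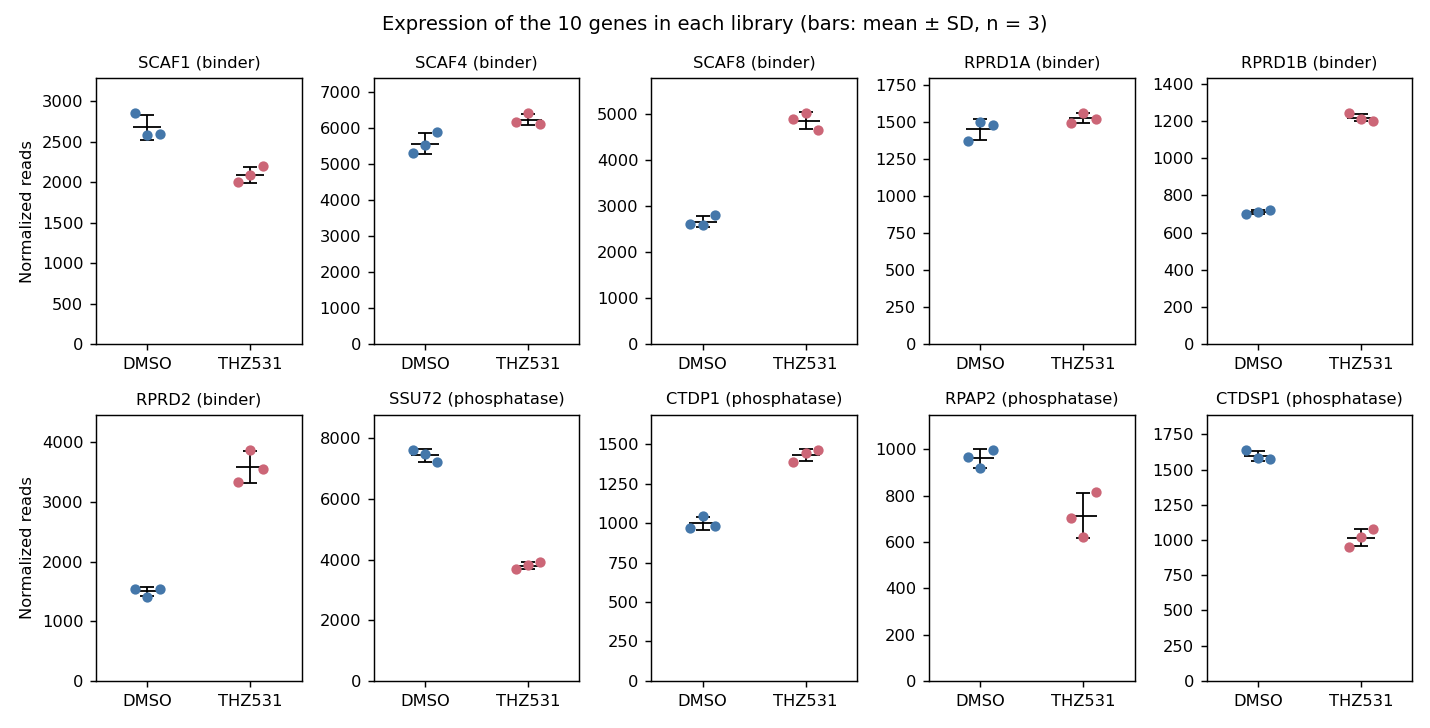
Normalized reads (y axis, from 0) of the 10 genes in each library, in DMSO (blue) and THZ531 (red), with the mean and SD of 3 libraries as bars. The groups overlapped only in RPRD1A, and by fold change RPRD2 (1502 to 3588) had the largest increase and SSU72 (7443 to 3805) the largest decrease.

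SCAF8 and its relative SCAF4 bind the phosphorylated CTD and keep the polymerase from ending transcripts at early polyadenylation sites. SCAF8 (GSHG0037303, hg38 chr6:154733378-154834244) had 2610, 2593 and 2800 normalized reads in the 3 DMSO libraries and 4888, 5026 and 4657 in the 3 THZ531 libraries. Every treated value lay well above every control value. The mean of 2668 ± 115 in DMSO became 4857 ± 187 in THZ531 (SD, n = 3), and the log2 fold change was 0.86 (SE 0.05, 95% interval 0.76 to 0.97) with a Benjamini-Hochberg adjusted p of 2.3e-10 in limma. It stood above 92.9% of tested loci with a symbol. SCAF4 (GSHG0028003, chr21:31671000-31732118) read 5288, 5511 and 5873 in DMSO and 6159, 6408 and 6115 in THZ531. These groups lay apart by a small margin, and the log2 fold change of 0.17 (95% interval 0.07 to 0.26, limma adjusted p = 0.00376) was under the 1.5-fold minimum and turned to -0.078 with the same total and -0.33 with RPL34.

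SCAF1 (GSHG0021860, chr19:49642125-49658649), an SR-related protein named for its association with the CTD, was the only binder with lower values in all treated libraries. It had 2854, 2579 and 2598 normalized reads in DMSO and 1999, 2086 and 2198 in THZ531. The groups did not overlap, but the difference of -0.35 on the log2 scale (SE 0.06, limma adjusted p = 3.57e-05) was a 1.28-fold one and was not called. With the same total (-0.60) and with RPL34 (-0.85) it passed the fold minimum.

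The RPRD proteins share a CTD-interacting domain, and RPRD1A and RPRD1B, the latter also known as CREPT, pair with each other and bring the phosphatase RPAP2 to the CTD. RPRD2 (GSHG0001080, chr1:150363091-150476566) had the largest increase of the 10 genes. Its values were 1547, 1414 and 1545 in DMSO and 3333, 3875 and 3556 in THZ531, so that each treated library held more than any control by a wide gap. The mean rose from 1502 ± 75.9 to 3588 ± 273 (SD, n = 3), or 2.39-fold, with a log2 fold change of 1.25 (SE 0.06, limma adjusted p = 4.76e-11), above 97.1% of tested loci with a symbol.

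RPRD1B (GSHG0026795, chr20:38033746-38092366) had 698, 712 and 720 normalized reads in DMSO and 1242, 1211 and 1201 in THZ531. Its replicates were the tightest of the family, with SDs of 11.4 and 21.2 around means of 710 and 1218. The log2 fold change was 0.78 (95% interval 0.64 to 0.92, limma adjusted p = 2.93e-08). RPRD1A (GSHG0020774, chr18:35989824-36067559) gave 1370, 1501 and 1482 in DMSO and 1494, 1562 and 1523 in THZ531. This was the sole member whose groups overlapped, and its log2 fold change of 0.07 (95% interval -0.05 to 0.20) did not pass (limma adjusted p = 0.279). Its sign turned with the same total (-0.17) and with RPL34 (-0.42).

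SSU72 (GSHG0001916, chr1:1541673-1574868) removes phosphate from Ser5 and Ser7 and works within the cleavage and polyadenylation machinery. It gave 7621, 7497 and 7212 normalized reads in DMSO and 3676, 3807 and 3933 in THZ531. The treated values clustered far below the controls. The mean fell from 7443 ± 210 to 3805 ± 128 (SD, n = 3), a 1.96-fold decrease with a log2 fold change of -0.97 (SE 0.04, limma adjusted p = 1.44e-11), and 15.6% of tested loci with a symbol had a lower log2 fold change.

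CTDSP1 (GSHG0024792, chr2:218398233-218405941), a small CTD phosphatase known for silencing neuronal genes in other tissues, was the other phosphatase that was down-regulated. Its 1640, 1579 and 1573 normalized reads in DMSO compared with 953, 1021 and 1075 in THZ531, without overlap. The log2 fold change was -0.65 (SE 0.06, limma adjusted p = 1.54e-07), just past the 1.5-fold minimum at 1.57-fold. The microRNA locus MIR26B, which lies within CTDSP1, was listed at 0 in all 6 libraries of polyA RNA.

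CTDP1 (GSHG0020939, chr18:79679801-79756625) encodes FCP1, which strips the CTD so that RNAPII can be used again, and unlike SSU72 and CTDSP1 it had higher values in every treated library. It had 970, 1049 and 981 normalized reads in DMSO and 1389, 1446 and 1465 in THZ531. The groups were well separated, yet the 1.43-fold difference (log2 fold change 0.52, SE 0.06, limma adjusted p = 1.76e-06) was under the minimum and was 0.03 with RPL34. RPAP2 (GSHG0000805, chr1:92298965-92402057), a Ser5 phosphatase that also takes part in bringing RNAPII into the nucleus, had 967, 917 and 997 in DMSO and 703, 622 and 817 in THZ531. All treated values were lower, but they were the most scattered of the family, with a coefficient of variation of 13.7% in THZ531. The median in THZ531 was 3.87% over 7738 loci with a mean of 500 to 10000. RPAP2, with a mean of 837, lies near the lower end of that range. The log2 fold change of -0.44 (95% interval -0.63 to -0.24, limma adjusted p = 0.000506) was not called, although it passed with the same total (-0.68) and with RPL34 (-0.93).

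**Figure D2:**
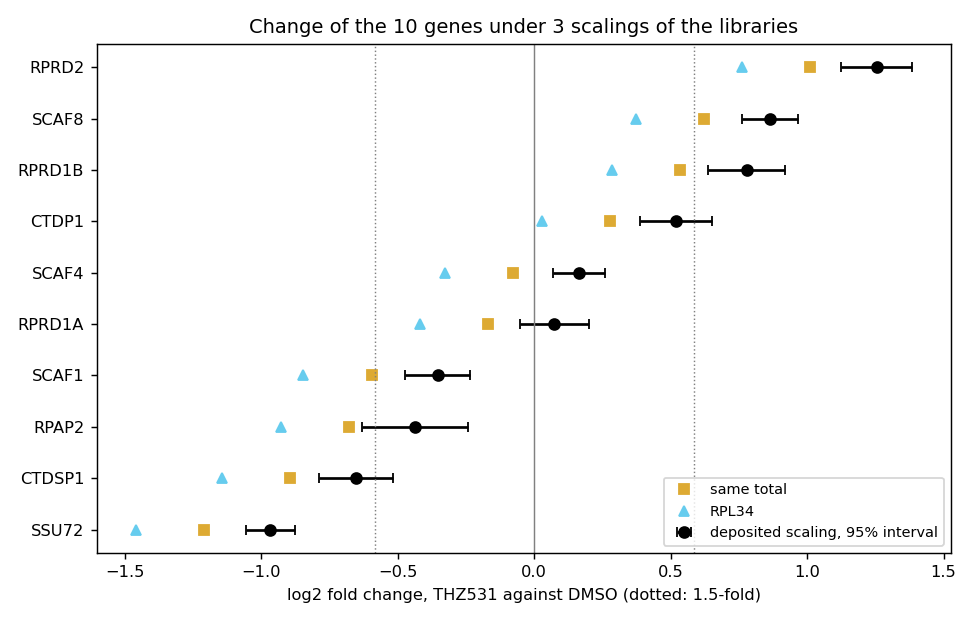
Log2 fold change (x axis) of the 10 genes with the deposited scaling (black points with 95% intervals of limma), with every library at the same total (yellow squares) and with scaling to RPL34 (blue triangles), with dotted lines at a fold change of 1.5. RPRD2 lies right of the upper line and SSU72 and CTDSP1 left of the lower line under all 3 scalings, while SCAF4 and RPRD1A change sign.

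Per kilobase of annotated exon, SSU72 was the most abundant of the 10 genes in DMSO, with 1076 ± 30.3 normalized reads per kb (SD, n = 3), followed by SCAF4 (930 ± 49.4), SCAF1 (600 ± 34.4), SCAF8 (491 ± 21.1) and CTDSP1 (337 ± 7.79). With this length RPRD1A (172 ± 8.37), RPRD2 (163 ± 8.22) and CTDP1 (161 ± 6.87) did not differ beyond their spread. RPRD1B (133 ± 2.14) and RPAP2 (56.3 ± 2.39) were lowest. In THZ531 the order opened with SCAF4 (1042 ± 26.4) and SCAF8 (895 ± 34.4), ahead of SSU72 (550 ± 18.5), SCAF1 (469 ± 22.4) and RPRD2 (388 ± 29.5). CTDP1 (231 ± 6.38), RPRD1B (229 ± 3.98) and CTDSP1 (214 ± 12.8) lay close together, above RPRD1A (181 ± 4.04) and RPAP2 (41.9 ± 5.75). The place of SSU72 depends on the length used, since all its annotated exons span 6919 bases and its main transcript (MANE Select) 1284. Per kilobase of that transcript it led in both groups, at 5797 in DMSO and 2964 in THZ531. Other places depend on the length too. Per kilobase of the MANE Select transcript in DMSO, RPRD1A (328 ± 15.99), CTDP1 (267 ± 11.37) and RPRD2 (183 ± 9.27) lay apart. In THZ531 CTDSP1 went from place 8 to 6 and RPRD1B from 7 to 9. RPAP2 was lowest with either length.

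Ratios of related genes within a library are free of the scaling. The log2 ratio of SCAF8 to SCAF4 was -1.02, -1.09 and -1.07 in DMSO and -0.33, -0.35 and -0.39 in THZ531, a difference of 0.70, or 1.62-fold in favour of SCAF8. RPRD1B to RPRD1A was -1.03 ± 0.05 in DMSO and -0.33 ± 0.05 in THZ531 (SD, n = 3), also a difference of 0.70. RPRD2 to RPRD1A was 0.05 ± 0.13 in DMSO, where the pair had about equal reads. In THZ531 it was 1.23 ± 0.08, with more reads of RPRD2. Reads are not corrected for length, and the MANE Select transcript has 8186 bases in RPRD2 and 4421 in RPRD1A. Per kilobase of these transcripts RPRD2 was below RPRD1A in DMSO (183 against 328) and above it in THZ531 (438 against 345). CTDSP1 to CTDSP2, another of the small CTD phosphatases, was 0.07 ± 0.06 in DMSO and lower, at -0.94 ± 0.18, in THZ531. None of the 4 ratios overlapped between the groups, and of single tested loci with a symbol 72.9% did not overlap. Each ratio gave p = 0.1 in a two-sided exact permutation test, the smallest p that 3 against 3 libraries allow. It was also 0.1 after Benjamini-Hochberg adjustment over the 4. The ratios are not independent of the single-gene changes, and those of RPRD1B and RPRD2 share RPRD1A.

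**Figure D3:**
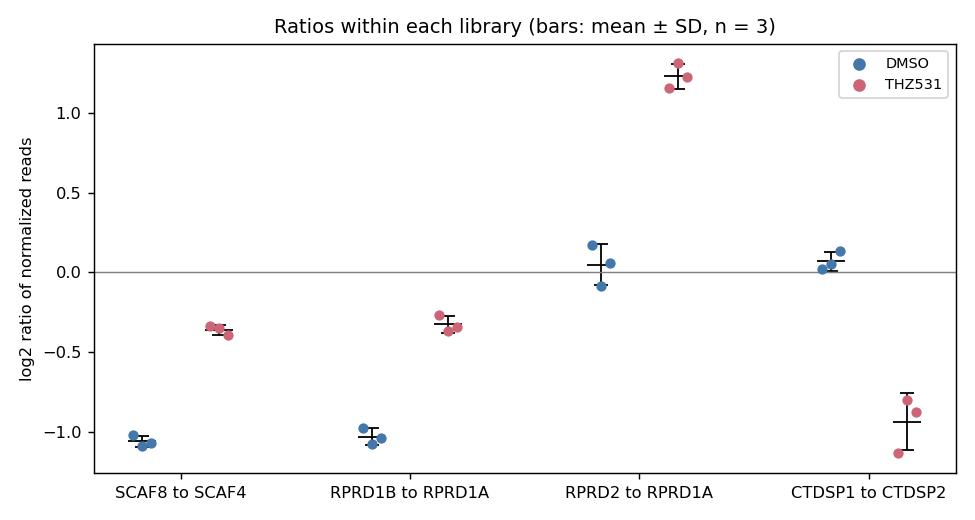
Log2 ratio of normalized reads (y axis) of 4 pairs of related genes within each library, with the mean and SD of 3 libraries as bars. The ratios of SCAF8, RPRD1B and RPRD2 to their relatives are higher in THZ531 and that of CTDSP1 to CTDSP2 is lower, with no overlap between the groups in any pair.

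SSU72 was the only member with expression at a further locus that lies wholly inside it. This locus has no symbol and covers 964 bases of intron 2, at hg38 chr1:1561103-1562066, within an intron of 19770 bases (chr1:1545003-1564772) of the GENCODE model of SSU72. It begins 2707 bases after the 5′ splice site of the intron. It had 156, 128 and 119 normalized reads in DMSO and 378, 408 and 389 in THZ531. The treated values lay far above the controls while the gene around it went down, with a log2 fold change of 1.55 for the locus (95% interval 1.25 to 1.84, limma adjusted p = 5.65e-08). Called higher were 15.7% of all tested loci and 13.3% of those with a symbol. Such a call was therefore more common among loci without a symbol, and the rise is not particular to this locus. As a percentage of the SSU72 value the locus was 1.80 ± 0.21% in DMSO and 10.3 ± 0.41% in THZ531 (SD, n = 3), a difference of 2.51 on the log2 scale with the smallest p that the exact permutation test allows (p = 0.1). The numbering of the loci places it on the minus strand, that of SSU72, a reading that gave the right strand for 99.0% of 22858 named genes. Unspliced SSU72 RNA, an SSU72 transcript that ends in the intron and a separate transcript of this locus cannot be told apart in gene-level values. The strand setting of the counting is not given in the sources used here, so the strand of the reads is not known.

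The sequence around this locus is shown because it holds the signals at which an intron is cut out or a transcript is ended. All lines are the minus strand of hg38, 5′ to 3′. The capitals mark the GT that starts intron 2 in the first line and AATAAA, the canonical polyadenylation hexamer, in the others, which show 2 of the 3 hexamers that follow the locus within 1000 bases.
5′ splice site of intron 2, chr1:1564755-1564784: agacaaagaactGTatcccagcgggttgcc
A hexamer after the locus, chr1:1560910-1560955: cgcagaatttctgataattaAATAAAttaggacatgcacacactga
Another hexamer after the locus, chr1:1560858-1560903: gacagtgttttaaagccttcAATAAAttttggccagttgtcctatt
Intron 2 held 5 AATAAA in all, 0 of them in the locus and 3 within 1000 bases after its end. The hexamers printed began 3837 and 3889 bases after the 5′ splice site. Of windows of 964 bases laid over the introns of the 10 genes, 47.7% of 560 held the hexamer on the transcribed strand, and in SSU72 it was 6 of 30 windows. A match of these letters is a description and not evidence of a used site.

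**Figure D4:**
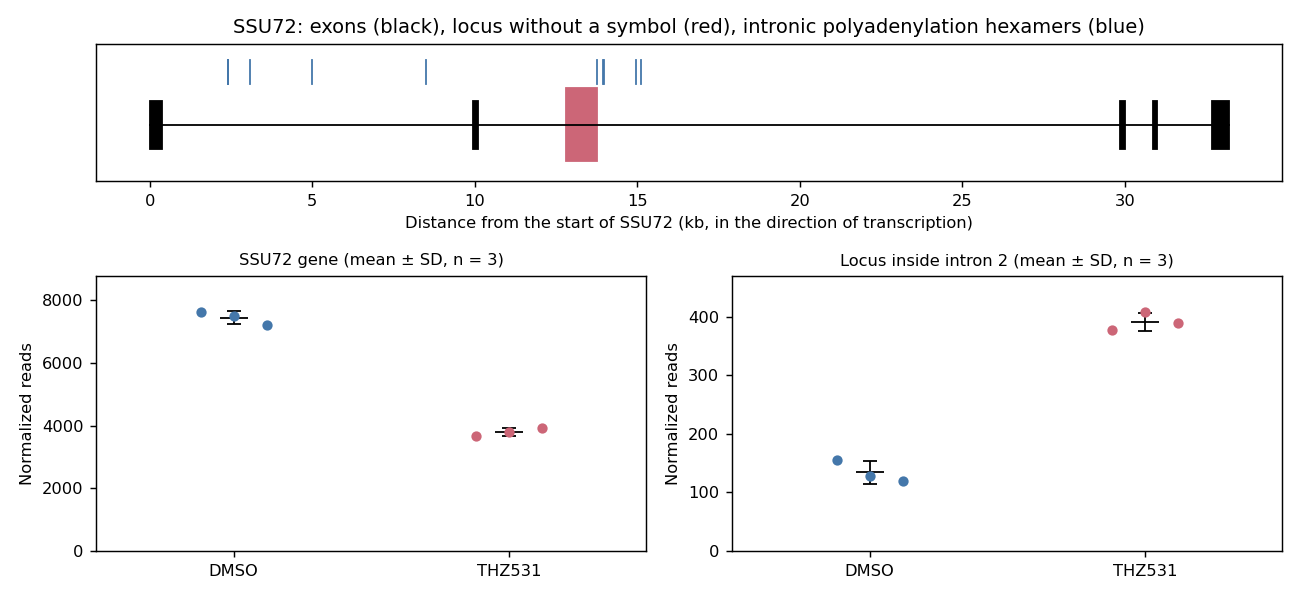
Top, exons of SSU72 (black), the inner locus (red) and AATAAA hexamers in its introns (blue ticks) by distance from the gene start in kb. Bottom, normalized reads per library of the gene and of the locus with the mean and SD of 3 libraries as bars, where the gene fell from 7443 to 3805 and the locus rose from 134 to 392.

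The 3 members called higher span more bases than the 2 called lower. Spans are those of the measured loci, and hexamers were counted in introns of the MANE Select transcripts. RPRD2, the gene with the largest increase, spans 113476 bases with 133 AATAAA in its introns, SCAF8 spans 100867 bases with 106, and RPRD1B spans 58621 bases with 22. SSU72 spans 33196 bases with 11 intronic AATAAA, and CTDSP1 spans 7709 bases with 0. Length alone did not order the rest, since RPAP2 with 103093 bases and 109 hexamers had lower values in THZ531. SCAF4 (61119 bases), CTDP1 (76825) and RPRD1A (77736) were longer than RPRD1B and were not called. The median span of tested loci with a symbol was 27951 bases, so SSU72 was not short among these. Over the 10 members Spearman's rho between span and log2 fold change was 0.59, a description over genes that share the same libraries, and over 15278 tested loci with a symbol it was -0.06.

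The promoters of the members that moved most in each direction are printed so that both starts can be compared. RefSeq (GRCh38.p14) gave a stretch around the transcription start for 9 of the 10 genes, all but SCAF4. The capitals mark CGGAAG in SSU72 and ATTGG, which is CCAAT on the other strand, in RPRD2.
RPRD2, chr1:150363897-150364196, plus strand: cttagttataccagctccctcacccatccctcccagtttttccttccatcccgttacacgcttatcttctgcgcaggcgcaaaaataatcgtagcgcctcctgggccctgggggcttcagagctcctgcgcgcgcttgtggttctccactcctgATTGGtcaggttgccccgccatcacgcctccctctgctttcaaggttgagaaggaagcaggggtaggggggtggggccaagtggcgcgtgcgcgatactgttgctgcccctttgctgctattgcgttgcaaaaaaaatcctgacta
SSU72, chr1:1574814-1575113, minus strand: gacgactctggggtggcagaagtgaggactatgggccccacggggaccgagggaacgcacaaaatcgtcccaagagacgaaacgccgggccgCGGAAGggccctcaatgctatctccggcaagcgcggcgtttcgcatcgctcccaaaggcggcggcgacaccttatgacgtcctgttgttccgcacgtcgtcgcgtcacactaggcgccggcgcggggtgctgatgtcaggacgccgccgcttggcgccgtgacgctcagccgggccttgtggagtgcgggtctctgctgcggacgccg
Motifs were searched on both strands. The GC box GGGCGG, found in 44.87% of 34943 RefSeq promoters of the same length, occurred in SCAF1 (4 matches), SCAF8 and RPRD1A (2 each) and RPRD1B, RPAP2 and CTDSP1 (1 each). The box CCAAT, in 34.65% of all promoters, occurred in SCAF1, SCAF8 and RPRD2. The motif CGGAAG, in 19.39%, occurred in RPRD1A and SSU72. None of the 9 promoters held the TATAAA box, which is in 11.57% of all. CTDP1 held none of the 4. These letters did not separate the genes called higher from those called lower, and no factor was tested.

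The rest of the CTD cycle was read from lists of other CTD phosphatases, other CTD readers and CTD kinases with their cyclins. POLR2A, which encodes the subunit that carries the CTD, had 12813, 12508 and 12169 normalized reads in DMSO and 28198, 28853 and 28252 in THZ531. The treated libraries thus held far more of the substrate's mRNA than the controls, with a log2 fold change of 1.19 (SE 0.03, limma adjusted p = 1.44e-13) that stayed positive with RPL34 (0.69). Of the targets of the drug, CDK12 had 6762 ± 105 normalized reads in DMSO and 8835 ± 357 in THZ531 (SD, n = 3). Its log2 fold change was 0.39, which was not called and was -0.11 with RPL34. CDK13 had 3918 ± 149 and 3863 ± 44.8, a log2 fold change of -0.02, not called.

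Of 15 other CTD phosphatase genes, 2 were up-regulated, 2 down-regulated and 11 not called, with a median log2 fold change of 0.06. Both that fell are partners of broad phosphatases rather than enzymes with the CTD as sole substrate. PPP1R10, or PNUTS, which directs protein phosphatase PP1 to RNAPII, had 4310 ± 192 normalized reads in DMSO and 548 ± 43.5 in THZ531 (SD, n = 3), which is -2.98 on the log2 scale (limma adjusted p = 1.56e-14). INTS6, the Integrator subunit that brings PP2A, had 2057, 1961 and 2064 in DMSO and 329, 286 and 330 in THZ531 (-2.68). PPP2CA, the catalytic subunit of PP2A, increased by 0.66 and CTDSPL2 by 0.67 on the log2 scale, and neither call held with the same total or with RPL34. CTDSP2, the paralog of CTDSP1, had a log2 fold change of 0.35 that was not called and was -0.14 with RPL34.

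Of 14 other CTD readers, 3 were up-regulated, 2 down-regulated and 9 not called (median 0.22). RECQL5, a helicase that binds RNAPII and restrains elongation, had 788, 785 and 725 normalized reads in DMSO and 280, 197 and 204 in THZ531, a log2 fold change of -1.77 (limma adjusted p = 3.76e-09). PRPF40B, a splicing protein, changed by -0.71. The readers that increased were PHF3 (0.86) and PHRF1 (0.74), together with SETD2, the H3K36 methyltransferase (0.62), which is named after its value was seen. With RPL34 none of the 3 was called. Of 12 CTD kinases and cyclins, 3 were up-regulated, 1 down-regulated and 8 not called (median 0.38). The cyclins CCNT2 (1.45) and CCNT1 (0.87), partners of CDK9, and CCNH (0.71), partner of CDK7, increased, and the Mediator kinase CDK19 decreased (-1.42). With the same total the call of CCNH was lost, and with RPL34 those of CCNH and CCNT1 were lost. The shares called in these lists were 26.7%, 35.7% and 33.3%, beside 37.0% of tested loci with a symbol. Among so few genes these are close to the background and are no result about the lists.

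**Figure D5:**
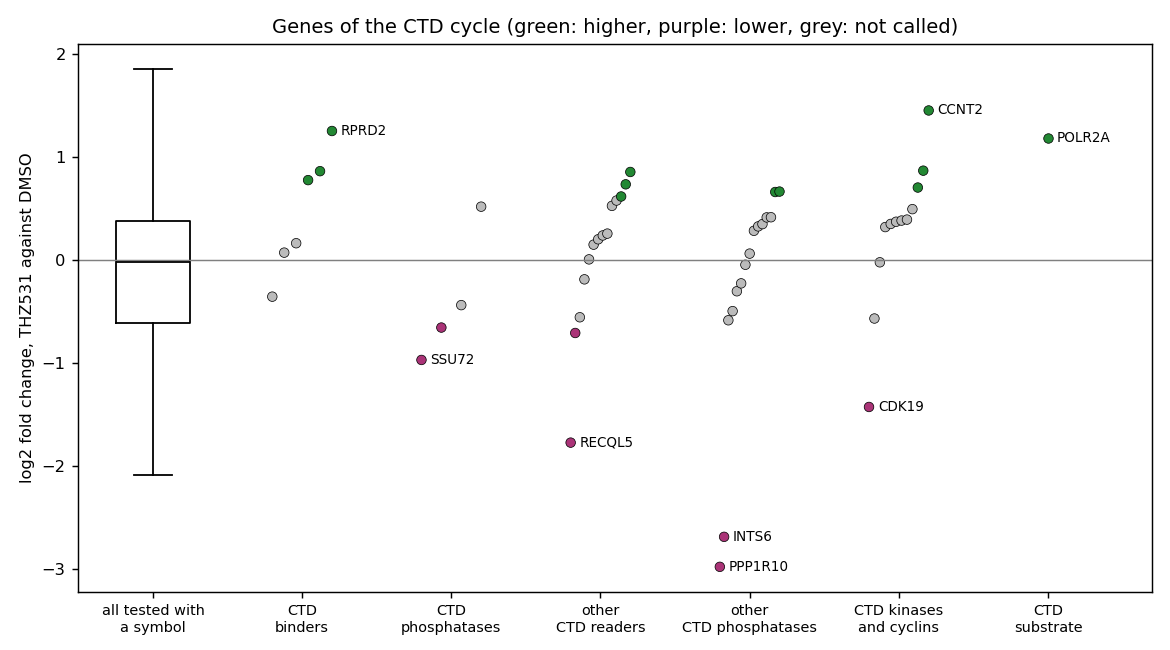
Log2 fold change (y axis) with the deposited scaling, with a box for all 15278 tested loci with a symbol (median, quartiles, whiskers to 1.5 times the interquartile range) and a point for each gene of the CTD cycle, green where up-regulated, purple where down-regulated and grey where not called. Among the 10 members the called binders lie above 0 and the called phosphatases below 0. Other readers and other phosphatases have calls in both directions. PPP1R10 and INTS6 lie lowest of all points. The calls of SCAF8 and RPRD1B depend on the scaling as given in the text, and with RPL34 the binder SCAF1 was called lower.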

How the data were processed

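PolyA RNA of 6 OVCAR3 samples was sequenced by the authors, mapped to hg38 with STAR (version 2.7.5a per the labels), counted per gene with featureCounts on FAST DB and normalized with DESeq2. The deposited values are a signal: per library, the authors' counts were scaled by its DESeq2 size factor, with no correction for length. All were whole multiples of 1 step (tolerance 0.02 of a read), so reads were recovered. No column was left out.

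Values were transformed to log2(value + 1) and fitted with limma 3.58.1 (R 4.3.3) with a mean-variance trend over 17568 loci with at least 10 in 3 or more libraries, so fold changes are on that scale. Fold change of at least 1.5 and p of at most 0.05, the study's criterion, made a call, and p-values were Benjamini-Hochberg adjusted over all loci. Alternatives were edgeR 4.0.16 and DESeq2 1.42.0 on recovered reads, other pseudocounts, minima, scalings and thresholds, a replicate block and each library left out. Scripts were tested on simulated data.

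The members and lists were chosen with earlier results of these data known. All members are named, with POLR2A, CDK12, CDK13, the paralogs in the ratios and at most 4 called genes per list (largest change, mean of at least 100, no overlap). Gene models are GENCODE (hg38), and promoters RefSeq. Totals of 53054048 to 70986130 reads per library set the precision, and the SSU72 intron locus rested on 138 to 359 reads per library. A further stretch of SSU72 intron sequence is not reported here.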

Additional observations from a re-analysis of the deposited data

How the results depend on the processing

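The 3 higher and 2 lower members were called with edgeR, DESeq2, limma without trend, both pseudocounts, both minima, the upper quartile, the adjusted p and in every fit without 1 library (5 calls each time). Replicate numbers did not pair the samples (correlations of the deviations of same-numbered libraries 0.00, 0.02 and -0.04), and with the replicate block 5 members were again called, 3 higher and 2 lower. With RPL34, 1 member was called higher and 4 lower, and with the same total 4 were lower. Scaling reversed SCAF4 (-0.33 with RPL34 and -0.078 with the same total), RPRD1A (-0.42 and -0.17), and, with RPL34, CDK12 (-0.11) and CTDSP2 (-0.14). A scaling shifts every gene alike, by -0.49 for RPL34 and -0.24 for the same total, by construction.

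At a fold change of 2 in limma, 1 member was called, 1 higher and 0 lower, with SSU72 at 1.96-fold. Other CTD phosphatases then gave 2 calls, 0 higher, other readers 1 call, 0 higher and 1 lower, and kinases and cyclins 2 calls, 1 higher. With RPL34, 0 other phosphatases were called higher and 6 lower, 0 other readers higher and 4 lower, and 1 kinase or cyclin higher and 2 lower. With the same total, 0 other phosphatases were higher and 4 lower, 1 other reader was higher, and 2 kinases or cyclins were lower. Lower kinases or cyclins also numbered 2 with edgeR and 2 with the upper quartile. Without 1 library the count was 1 to 2, with 2 when THZ531 replicate 3 was left out, and CDK9 (-0.57) lay next to the threshold. Lower other phosphatases numbered 3 with edgeR, 3 with the upper quartile and 2 to 3 without 1 library. INTS8 (-0.58), named after its value was seen, lay next to the threshold in that list. Other readers called numbered 5 to 6 without 1 library. The SSU72 intron locus ranged from 1.06 to 1.66 over all alternatives and from 1.47 to 1.66 with 1 library left out. Among the alternatives other than leaving out a library, 413 values kept direction and call or, for a count, stayed within 1.5 times, 25 counts moved by more, 6 reversed, 4 gained a call and 13 lost it.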

Other observations

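Other loci that touch a member were examined after seeing the data. A locus without a symbol at hg38 chr1:1574655-1575264 overlaps the start of SSU72 over 214 bases. It had 30.2, 43.6 and 44.7 normalized reads in DMSO and 76.8, 56.8 and 43.2 in THZ531, with overlap between the groups and a log2 fold change of 0.55 that did not pass (limma adjusted p = 0.121). GLMN shares 23 bases with RPAP2 at its start and had a log2 fold change of 0.06, not called, beside -0.44 for RPAP2. A locus of 8231 bases inside RPRD2 was listed at 0 in all 6 libraries.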
